A study of Mus musculus with 8 samples.

Results

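The difference between the 2 sorted subsets of intestinal intraepithelial lymphocytes (IEL) that held both before and after renewed stimulation was measured over all 8 arrays of the series. The 4 CD8αα arrays (0 h and 24 h, 2 replicates each) were compared with the 4 CD8αβ arrays of the same times and replicate numbers, so that each CD8αα array had 1 matched CD8αβ array. A feature (a gene, or an array ID with no current gene name) was called when the subset term of a limma model with time and replicate number as blocks had a Benjamini-Hochberg adjusted p under 0.05 and the difference had the same sign in all 4 matched pairs. Of 8835 features tested, 315 were called, 182 higher and 133 lower in CD8αα IEL.

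Per the labels, all 4 groups came from IEL of C57BL/6 mice, with no genetic modification stated. Cultures were first activated for 48 h by plate-bound anti-CD3 (1 µg/ml) in the presence of IL-2, IL-3, IL-4 and IL-15, then maintained in IL-2 for 14 days, after which the subsets were sorted. The 0 h groups were taken then, and the 24 h groups after a further 24 h on anti-CD3 at 1 µg/ml. All arrays therefore show cultured, already activated cells and not IEL taken directly from the gut, and no group was left for 24 h without anti-CD3. The labels give CD8αβ IEL an αβ receptor but name the receptor of CD8αα IEL in 3 ways (TCRcd, TCRαα and TCRγδ), so the subsets are called here by their CD8 chains. The labels do not say whether replicates were separate animals or cultures, and the p-values then speak only of the spread among these arrays, which may be technical. Between 7747 and 9119 of 31492 array IDs per array had a deposited detection p under 0.01. Elsewhere an ID is called detected on an array when its signal reached the level at which single-probe IDs pass that p, and the count by the deposited p is added where the readings differ. Precision is limited by the small number of arrays. The 0 h and 24 h pairs of a replicate number share that replicate and may not be independent. The model holds no term for a subset difference that varies between replicates, so 4 agreeing pairs may stand for fewer independent ones. Both replicate 2 arrays of CD8αα IEL lay on a second chip, so the replicate 1 pairs lie within 1 chip and the replicate 2 pairs cross chips.

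IEL are T cells that live between the epithelial cells of the gut. CD8αβ IEL with an αβ receptor resemble conventional cytotoxic T cells, in which the CD8αβ heterodimer is a coreceptor for MHC class I. CD8αα IEL, many of which carry a γδ receptor, are a natural population of the epithelium that is known for NK-type receptors and low expression of several costimulatory molecules. The T cell receptor of either kind signals through the CD3 chains, and its strength is tuned by costimulatory and inhibitory surface proteins.

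The 315 called features were 3.57% of those tested, 2.06% higher and 1.51% lower in CD8αα IEL. Agreement in sign over all 4 pairs was far more frequent than a call, with 2506 features (28.4%), and 1746 (19.8%) had an unadjusted p under 0.05. A further count, 287 features (3.25%), had all arrays of one subset beyond all arrays of the other. The median difference of all features was −0.0028 on the log2 scale. Among called features, 107 were higher and 95 lower by more than 1 log2 unit, and the smallest called differences were 0.47 and −0.49. For 53 of them the lower subset was detected on no array. A feature that passed the detection filter through 1 subset only had its direction largely set by that filter. Without the replicate number as a block, 42 higher and 41 lower features were called, and all 83 of them were among the 315. With the chip added to that block only the replicate 1 pairs bear on the subset, and the calls were 31 higher and 53 lower, of which 78 were shared.

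**Figure D1:**
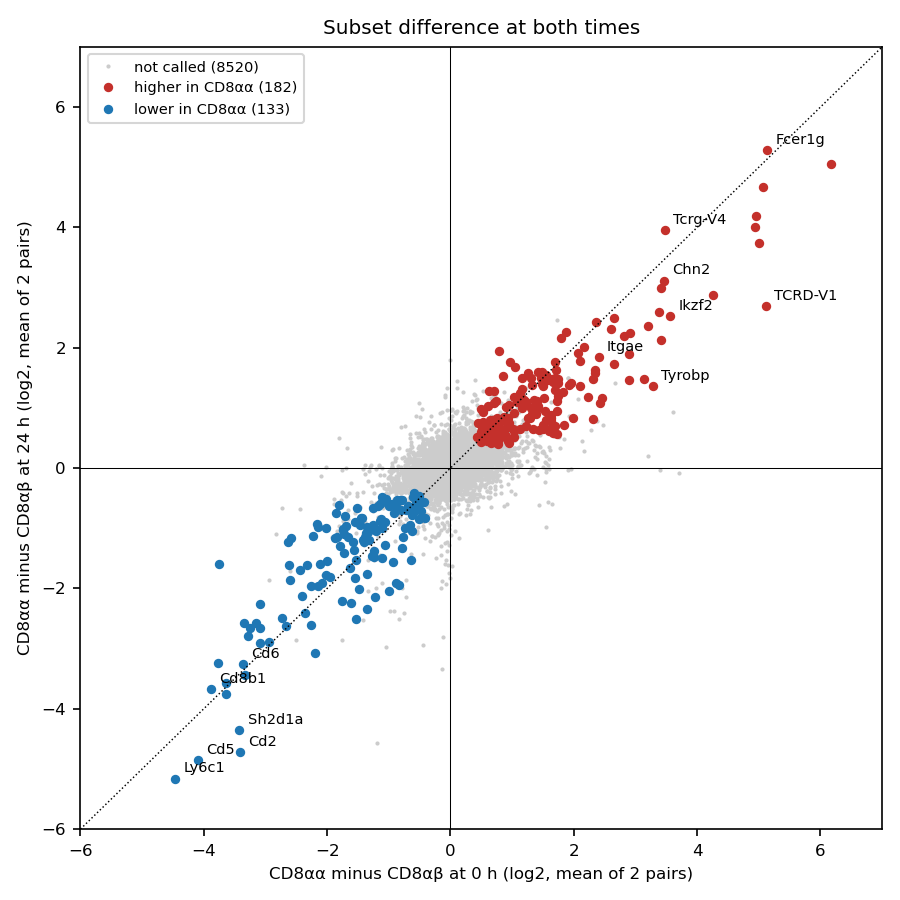
Each point is 1 of the 8835 features, placed by its log2 difference between CD8αα and CD8αβ IEL at 0 h (x axis, mean of 2 pairs) and at 24 h (y axis, mean of 2 pairs), with the 182 features called higher in red, the 133 called lower in blue and the dotted line marking equal differences. Called points lie in the upper right and lower left quadrants because the call required 1 sign in all pairs, and 220 of the 315 had the larger difference at 0 h.

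The T cell receptor segments are described first, because they mark the lineages of the subsets. Values below are log2 normalized signals, given for replicates 1 and 2 in that order, and a difference is always CD8αα minus CD8αβ. Of the array IDs for γ chain segments 6 of 13 passed the detection filter and 5 were called higher in CD8αα IEL. Both δ chain IDs were called higher. Of 20 α chain IDs 9 were tested and 8 called lower, and of 20 β chain IDs 14 were tested and 6 called lower. No chain had a call in the opposite direction. The δ IDs passed the detection filter only through CD8αα arrays and the 9 α IDs only through CD8αβ arrays. Their direction was therefore largely set by the filter, and their counts and medians describe the tested IDs without testing a direction. The median differences were 4.04 for γ, 4.38 for δ, −2.07 for α and −1.40 for β, against −0.0028 for all features. Segment IDs share sequence with related segments, so their counts are not counts of independent genes.

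The δ chain variable segment ID TRDV5 read 4.84 and 4.69 at 0 h and 4.82 and 4.68 at 24 h in CD8αβ IEL. In CD8αα IEL it read 10.24 and 9.42 at 0 h and 9.72 and 9.12 at 24 h. It was thus detected on all 4 CD8αα arrays and on 0 of the CD8αβ arrays, and it changed little with time. The difference was 4.87 (SE 0.16, adjusted p = 2.99e-05), a level at least 15.6-fold higher. Here and below, "at least" sets the higher subset against the lowest level detected on the arrays of a subset in which the ID was undetected. It is a bound only under the processing used here. Over the alternatives run, the log2 difference of TRDV5 went down to 0.93. The second δ chain ID, TCRD-V1, read 4.86, 4.56, 4.77 and 4.63 on the CD8αβ arrays, against 9.11 and 10.53 at 0 h and 6.79 and 7.98 at 24 h in CD8αα IEL. It was at least 7.67-fold higher (3.90, SE 0.53, adjusted p = 0.00989), and its difference was 5.11 at 0 h and 2.69 at 24 h.

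Among γ chain segments, the ID TRGV7 read 6.64 and 6.86 at 0 h and 4.62 and 5.43 at 24 h in CD8αβ IEL, against 11.23 and 12.19 and then 8.75 and 9.70 in CD8αα IEL. The arrays of the subsets did not overlap, and both subsets stood lower at 24 h. The difference was 4.58 (SE 0.20, adjusted p = 6.43e-05). The IDs Tcrg-V5 (4.47, SE 0.24) and TRGV5 (4.37, SE 0.29) followed the same course over the arrays, and whether the 3 IDs read the same transcripts was not tested. Tcrg-V4 read 9.29 and 9.71 at 0 h and 5.33 and 7.87 at 24 h in CD8αβ IEL, and 12.65 and 13.30 and then 10.32 and 10.79 in CD8αα IEL. It was detected on 3 CD8αβ arrays as well, and it differed by 3.71 (SE 0.35, adjusted p = 0.00163). Tcrg-V7 differed by 3.56 (SE 0.33). TRGV2, bright on all 8 arrays, did not pass (0.56, SE 0.25, adjusted p = 0.264).

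The α chain segments showed the opposite picture. Tcra-V13.1 read 6.84 and 8.43 at 0 h and 6.37 and 7.24 at 24 h in CD8αβ IEL, and 4.53 to 4.56 on the 4 CD8αα arrays. All 9 tested α chain IDs were detected on 0 of the CD8αα arrays. Tcra-V13.1 was at least 3.20-fold lower there (−2.68, SE 0.30, adjusted p = 0.00398), and TRAV3-1 at least 3.96-fold lower (−2.96, SE 0.28). The other called α chain IDs differed by −2.61 (TRAV7D-3) to −1.14 (TRAV6-1), and TRAV9-4 missed the threshold (−1.93, SE 0.43, adjusted p = 0.0564).

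Of 14 tested β chain IDs 6 were called lower in CD8αα IEL, 8 did not pass, and 13 had a negative difference. TRBV12-2 read 9.98 and 12.51 at 0 h and 10.42 and 12.46 at 24 h in CD8αβ IEL against 7.24, 7.98, 6.94 and 8.41 in CD8αα IEL (−3.70, SE 0.26, adjusted p = 0.000425). It was detected on all 8 arrays. TRBV6 (−3.04, SE 0.16), TRBV12-1 (−2.02, SE 0.32), Tcrb (−1.98, SE 0.15), Tcrb-V8.3 (−1.52, SE 0.19) and TRBV13-1 (−1.36, SE 0.17) were the other β chain calls. Tcrb-V13 and Tcrb-V8.2 were bright on every array and did not pass (−0.42, adjusted p = 0.0821, and −0.18, adjusted p = 0.474). The gap of TRBV7 between the subsets differed between the replicates. It read 10.28 and 8.48 at 0 h and 10.73 and 8.96 at 24 h in CD8αβ IEL, against 5.47 and 8.28 and then 5.40 and 8.57 in CD8αα IEL. Its difference was −5.07 in the replicate 1 pairs and −0.29 in the replicate 2 pairs, and it did not pass (−2.68, SE 0.88, adjusted p = 0.157). The ID Trb showed no sign common to the pairs (0.10, SE 0.17).

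**Figure D2:**
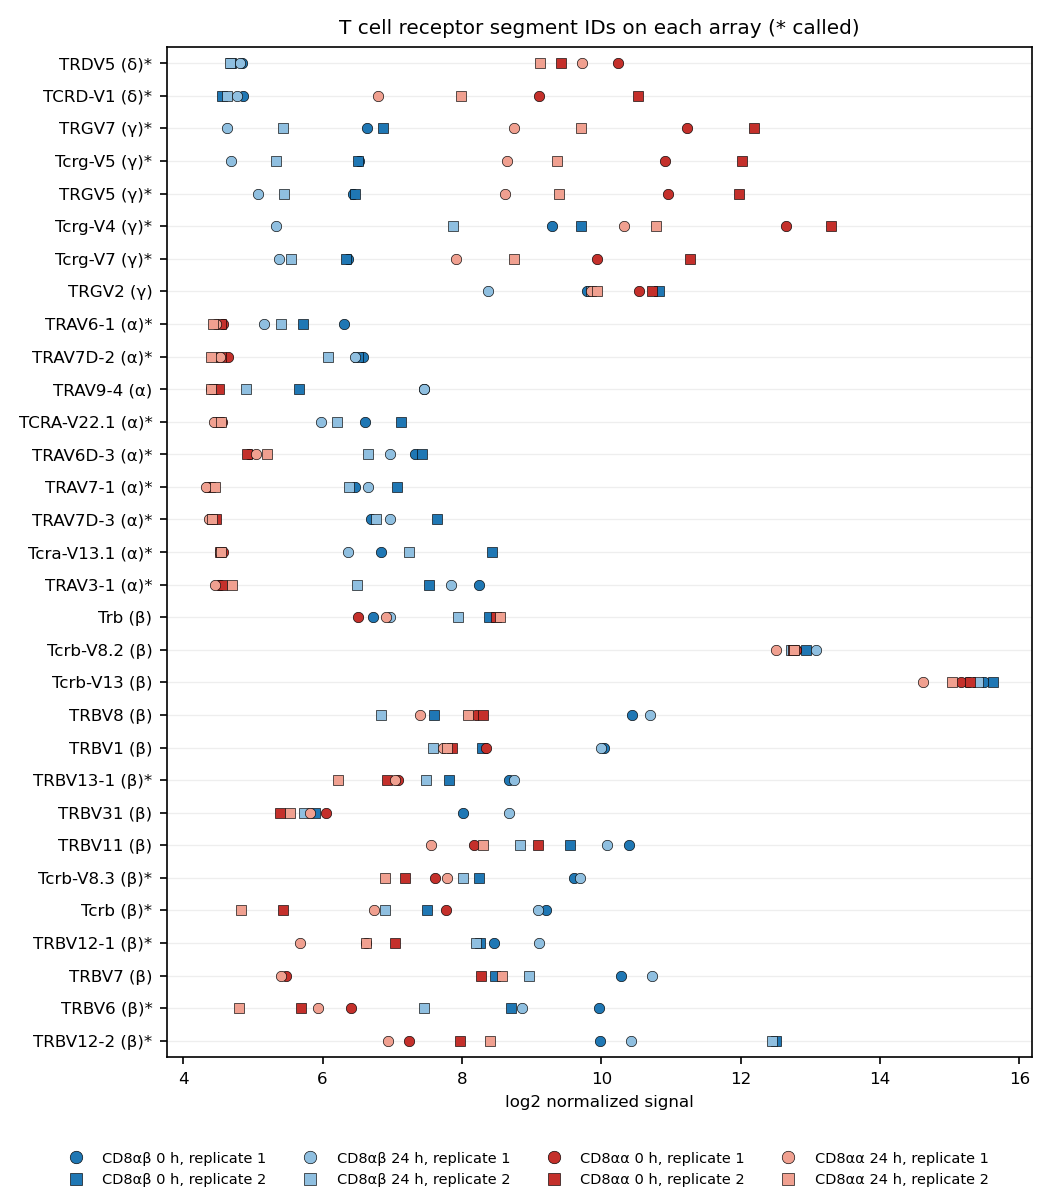
Log2 normalized signal (x axis) of each tested T cell receptor segment ID (rows, grouped as δ, γ, α and β, asterisk for a call) on each of the 8 arrays, with CD8αβ IEL in blue and CD8αα IEL in red, pale for 24 h, circles for replicate 1 and squares for replicate 2. The called γ and δ rows place all 4 red points to the right of the blue ones, the α rows place the red points between 4.33 and 5.21, and several β rows show wide gaps between circles and squares.

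The cells were sorted by their CD8 chains, so Cd8b1 checks the labels. Cd8b1, the CD8β chain, read 13.43 and 13.60 at 0 h and 12.87 and 13.23 at 24 h in CD8αβ IEL, against 8.82 and 10.44 and then 8.79 and 9.97 in CD8αα IEL. The arrays did not overlap. Cd8b1 was detected on all 4 CD8αα arrays by its signal and on 2 of them by the deposited p. It was 13.7-fold lower there (−3.78, SE 0.24, adjusted p = 0.000256), by −4.34 in the replicate 1 pairs and −3.21 in the replicate 2 pairs. The IDs of Cd8a and Cd4 were detected on 0 of the 8 arrays and say nothing of those genes. The CD3 chains, through which both receptor types signal, were bright on all arrays and none passed. Cd3g differed by 0.36 (SE 0.14, adjusted p = 0.211), Cd3d by 0.27, Cd3e by 0.25 and Cd247, the ζ chain, by 0.05 (SE 0.18, adjusted p = 0.910).

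Surface proteins and adaptors that adjust T cell receptor signalling were among the largest differences. Of 19 tested members of a list of costimulatory and SLAM-type genes, 7 were called lower and 1 higher in CD8αα IEL (42.1%, against 3.57% of all features). The median of the list was −0.06, so the other members lay on both sides of zero. The gene lists were chosen with earlier results of these data known, so a share above 3.57% does not test an enrichment. This holds for every list share below. In bulk RNA, fewer cells that express a gene and less RNA per cell cannot be told apart.

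Cd5, a scavenger-type receptor that dampens receptor signalling in T cells, read 8.40 and 9.24 at 0 h and 9.39 and 9.92 at 24 h in CD8αβ IEL against 4.66, 4.79, 4.53 and 5.08 in CD8αα IEL. It was detected on every CD8αβ array and on 0 of the CD8αα arrays. Cd5 thus passed the detection filter only through CD8αβ arrays, which largely set its direction. The level was at least 13.0-fold lower in CD8αα IEL (−4.47, SE 0.19, adjusted p = 6.43e-05). With the submitters' log2 values the difference was −1.88. The promoter window of Cd5 is shown because it belongs to the largest named surface receptor difference with no detection in one subset. It lies at chr19:10738925-10739224 on the minus strand of GRCm38.p6 and is taken from RefSeq, with AGGAAG, a core recognised by ETS factors, in capitals.
Cd5 promoter: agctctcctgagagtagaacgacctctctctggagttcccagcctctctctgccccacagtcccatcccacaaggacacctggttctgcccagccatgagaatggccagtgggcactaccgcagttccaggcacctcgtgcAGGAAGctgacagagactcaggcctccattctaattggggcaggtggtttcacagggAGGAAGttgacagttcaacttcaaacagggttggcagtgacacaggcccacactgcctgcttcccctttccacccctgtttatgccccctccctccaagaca
This window of 300 bases held 2 matches to AGGAAG or its reverse complement CTTCCT and 0 to TGTGGT or ACCACA, a core of RUNX factors. Of all 32851 RefSeq promoter windows of that length 35.4% held the first motif and 16.8% the second. Among windows of the called features the first stood in 41 of 84 for lower features (48.8%), in 52 of 122 for higher ones (42.6%) and in 32.9% of the windows of all tested features. The corresponding shares for the second were 21.4%, 14.8% and 13.0%. Windows could be matched for 57 of the 133 lower and 97 of the 182 higher features, and some genes have several windows. A match of letters is a description and not a binding site.

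Cd2, an adhesion receptor for CD48, read 10.73 and 11.11 at 0 h and 10.63 and 10.91 at 24 h in CD8αβ IEL, against 7.92 and 7.10 and then 6.22 and 5.87 in CD8αα IEL. It was steady in the first subset and lower on every array of the second (−4.07, SE 0.31, adjusted p = 0.000622). Sh2d1a, which encodes SAP, the adaptor of SLAM-family receptors, read 8.21, 8.87, 9.75 and 10.04 on the CD8αβ arrays and 5.80, 4.44, 5.95 and 5.13 on the CD8αα arrays, where 2 of 4 detected it (−3.89, SE 0.35, adjusted p = 0.00146). Cd6, a relative of Cd5, read 11.42, 12.01, 12.48 and 12.79 on the CD8αβ arrays, and 7.95, 8.74, 7.47 and 11.28 in CD8αα IEL. The 24 h replicate 2 array of CD8αα IEL stood close to the CD8αβ arrays, and the difference of −3.32 had a wider error (SE 0.53, adjusted p = 0.0195). Left out in turn, 4 of the 8 arrays ended the call (both CD8αβ replicate 1 arrays and both CD8αα 0 h arrays), with values from −3.94 to −2.72 over all 8 and a highest adjusted p of 0.0777. Cd28, the main costimulatory receptor, read 9.94, 10.12, 10.41 and 10.69 on the CD8αβ arrays and 8.08, 7.69, 8.68 and 8.49 on the CD8αα arrays (−2.06, SE 0.14, adjusted p = 0.000349). The subsets did not overlap. Slamf1 (−1.93, SE 0.35) and Icos (−1.10, SE 0.16) were called lower with overlapping arrays. These last 3 were named after their values were seen, as the remaining lower calls of the list. The call in the other direction was Cd244a, a SLAM-family receptor also found on NK cells (1.15, SE 0.13, adjusted p = 0.00466). Tnfrsf4 had the same sign in 4 of 4 pairs and did not pass (−1.69, SE 0.38, adjusted p = 0.0603).

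Ly6c1, a surface marker of memory CD8 T cells, had the largest lower difference of all called features. It read 13.30 and 13.47 at 0 h and 10.44 and 11.95 at 24 h in CD8αβ IEL, against 7.73 and 10.11 and then 4.99 and 7.08 in CD8αα IEL. Both subsets stood lower at 24 h, and the gap was similar at both times (−4.47 at 0 h and −5.16 at 24 h). The fitted difference was −4.81 (SE 0.35, adjusted p = 0.000460).

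**Figure D3:**
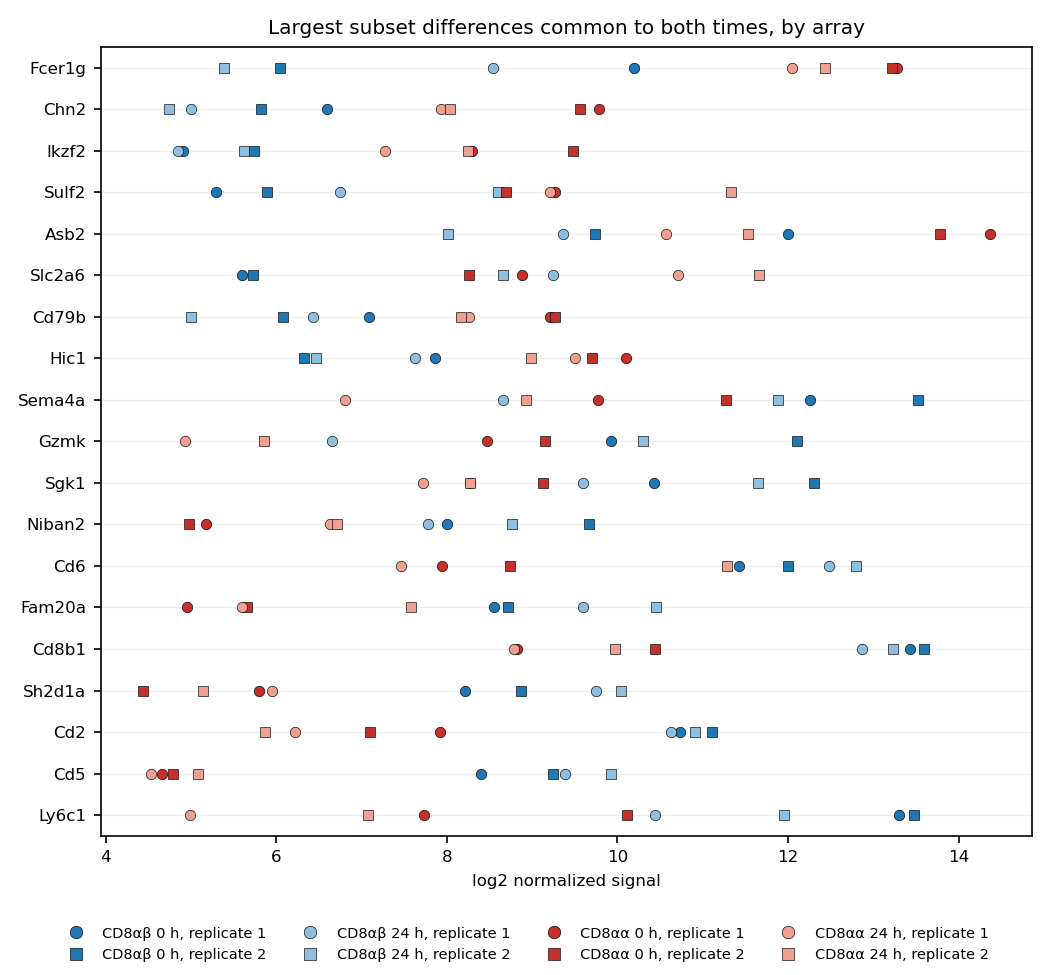
Log2 normalized signal (x axis) on each of the 8 arrays for the largest named differences outside the receptor segments, higher genes at the top and lower genes at the bottom, with CD8αβ IEL in blue, CD8αα IEL in red, pale symbols for 24 h, circles for replicate 1 and squares for replicate 2. Cd5, Cd2, Cd8b1, Chn2 and Ikzf2 separate blue from red on every array, while Fcer1g shows a wide gap between the replicates of CD8αβ IEL.

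Fcer1g and Tyrobp, from the list of NK-type receptors and their adaptors, were called higher in CD8αα IEL, and Hcst, a further adaptor in that list, did not pass (0.29, SE 0.23, adjusted p = 0.527). Fcer1g encodes the FcRγ chain, an adaptor that passes signals from Fc receptors, NK-type receptors and some T cell receptors. It read 10.19 and 6.04 at 0 h and 8.54 and 5.38 at 24 h in CD8αβ IEL against 13.28, 13.22, 12.04 and 12.44 in CD8αα IEL. All CD8αα arrays lay above all CD8αβ arrays, and in CD8αβ IEL replicate 1 was the brighter at both times. The difference was 5.21 (SE 0.72, adjusted p = 0.0104), the largest of a named gene, with 3.30 in the replicate 1 pairs and 7.12 in the replicate 2 pairs. It did not pass without the replicate block (adjusted p = 0.0595). Its RefSeq promoter window lies at chr1:171234300-171234599 on the minus strand of GRCm38.p6 and is shown for comparison with that of Cd5, with AGGAAG and TGTGGT in capitals.
Fcer1g promoter: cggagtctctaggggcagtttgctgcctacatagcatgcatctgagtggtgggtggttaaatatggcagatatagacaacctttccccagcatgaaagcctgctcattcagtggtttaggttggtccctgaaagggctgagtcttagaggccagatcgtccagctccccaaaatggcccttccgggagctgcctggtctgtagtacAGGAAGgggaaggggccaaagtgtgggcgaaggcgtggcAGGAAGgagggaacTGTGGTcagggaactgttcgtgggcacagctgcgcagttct
The window held 2 matches to the first motif and 1 to the second, against the shares given above.

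Tyrobp, which encodes DAP12, a related adaptor of activating NK-type receptors, read 4.92, 4.53, 4.54 and 4.43 on the CD8αβ arrays. In CD8αα IEL it read 8.72 and 7.29 at 0 h and 6.32 and 5.39 at 24 h. It was detected on 3 CD8αα and 0 CD8αβ arrays and was at least 2.40-fold higher (2.32, SE 0.40, adjusted p = 0.0258), by 3.28 at 0 h and 1.37 at 24 h. The call was lost without 4 of the 8 arrays in turn, and in the replicate 1 pairs alone (2.79, adjusted p = 0.0724) and the replicate 2 pairs alone (1.86, adjusted p = 0.0527).

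Of 15 tested members of the NK-type list 4 were called higher and 2 lower (40.0%, against 3.57% of all features), with a median of 0.68 and 12 positive differences. Of all 8835 features 4371 were positive. Tyrobp passed the detection filter only through CD8αα arrays and Klra7 only through CD8αβ arrays, so the filter largely set their directions. Beside Fcer1g, Tyrobp and Cd244a the higher call was Cd160, an activating receptor of the immunoglobulin superfamily. It read 11.36, 10.67, 10.42 and 9.0 on the CD8αβ arrays and 13.35, 12.82, 10.90 and 12.34 on the CD8αα arrays. These overlapped, since 24 h replicate 1 of CD8αα IEL lay within the CD8αβ range (1.99, SE 0.40, adjusted p = 0.0407). The 2 lower calls were Pilrb1 (−1.67, SE 0.31, adjusted p = 0.0328) and Klra7, a Ly49 receptor (−1.20, SE 0.20, adjusted p = 0.0210). Pilrb1 lost its call without 6 of the 8 arrays in turn (−2.03 to −1.40 over all 8, highest adjusted p 0.113), and Klra7 without 3 (−1.36 to −0.97, highest adjusted p 0.0769). Klra7 was detected on 1 CD8αβ array by its signal but on all 4 by the deposited p, and on no CD8αα array by either. Cd7 had 3.20 at 0 h and 0.20 at 24 h and did not pass (1.70, SE 0.60, adjusted p = 0.181). Of 8 markers of NK and innate lymphoid cells 0 were called higher and 1, Eomes, lower. On any array 3 were detected, Ncr1 and Klra8 on none, and their summed signal ranged from 396.4 to 1246 in CD8αα and from 370.5 to 676.0 in CD8αβ IEL. Klrb1c differed by 0.0014 and did not pass.

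Among 23 tested receptor-proximal kinases, phosphatases and adaptors, Plcg2 was called higher and Ubash3a lower (8.70%, against 3.57% of all features), with a median of 0.0021. Plcg2, a phospholipase C of B cells and myeloid cells that T cells express at a lower level, read 10.64, 9.92, 10.23 and 9.73 in CD8αβ IEL against 12.13, 11.51, 11.03 and 10.82 in CD8αα IEL (1.24, SE 0.16, adjusted p = 0.00737). The subsets did not overlap. Ubash3a, a suppressor of T cell receptor signalling, differed by −1.41 (SE 0.29, adjusted p = 0.0469) and lost the call without 7 of the 8 arrays in turn. Trat1 (2.05, adjusted p = 0.0614) and Sit1 (−1.29, adjusted p = 0.0503) had 1 sign in 4 of 4 pairs and did not pass.

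Chn2, which encodes β2-chimaerin, an inhibitor of the small GTPase Rac that binds diacylglycerol, was higher in CD8αα IEL. It read 6.60, 5.83, 5.0 and 4.75 on the CD8αβ arrays and 9.78, 9.56, 7.94 and 8.03 on the CD8αα arrays. The gap was 3.06 in the replicate 1 pairs and 3.51 in the replicate 2 pairs, and the fitted difference 3.29 (SE 0.16, adjusted p = 9.38e-05).

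Granule and death ligand genes split between the subsets. Of 18 tested, 2 were called higher and 2 lower (22.2%), with a median of 0.18. Gzmk, granzyme K, read 9.92 and 12.11 at 0 h and 6.65 and 10.29 at 24 h in CD8αβ IEL, against 8.48 and 9.15 and then 4.93 and 5.86 in CD8αα IEL. Each CD8αα array lay below its matched array although the subsets overlapped (−2.64, SE 0.47, adjusted p = 0.0273). Gzmm was lower as well (−1.17, SE 0.12, adjusted p = 0.00304). Gzma, granzyme A, was higher in CD8αα IEL (1.00, SE 0.21, adjusted p = 0.0470) but lost the call without 6 of the 8 arrays in turn. Tnfsf10, which encodes the death ligand TRAIL, read 4.76, 5.54, 5.07 and 5.29 on the CD8αβ arrays and 6.40, 6.90, 6.15 and 6.95 on the CD8αα arrays. It was undetected in CD8αβ IEL and at least 1.91-fold higher in CD8αα IEL (1.43, SE 0.13, adjusted p = 0.00135). Tnfsf10 passed the detection filter only through CD8αα arrays. The ID of Gzmb was detected on 0 of the 8 arrays.

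Among 9 inhibitory receptors and ligands, Cd96, a receptor of the nectin-binding family, was the 1 call (11.1%). It read 9.16, 9.25, 7.12 and 7.94 in CD8αβ IEL against 10.66, 10.71, 8.57 and 9.50 in CD8αα IEL, a gap of 1.44 to 1.56 in every pair (1.49, SE 0.17, adjusted p = 0.00467). Of 20 cytokine genes, Tnf was called lower (5%; −1.11, SE 0.23, adjusted p = 0.0470), and it lost the call without 6 of the 8 arrays in turn. None of 13 chemokine and chemokine receptor genes and none of 18 interleukin and interferon receptor genes was called. At the 3.57% called over all features, lists of these sizes hold few calls or none. Ccl1 and Xcl1 differed by 3.40 and 3.71 at 0 h and by −0.04 and −0.08 at 24 h, and neither passed over both times.

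Of 27 tested transcription factors of T lineages 1 was called higher and 1 lower (7.41%, against 3.57% of all features), with a median of 0.10. Ikzf2, which encodes Helios, an Ikaros-family factor, read 4.91, 5.73, 4.85 and 5.62 on the CD8αβ arrays and 8.30, 9.47, 7.28 and 8.25 on the CD8αα arrays. It was detected on 1 CD8αβ array and on all CD8αα arrays (3.05, SE 0.22, adjusted p = 0.000444), with a gap of 3.57 at 0 h and 2.53 at 24 h. Ikzf2 passed the detection filter only through CD8αα arrays. Eomes, a T-box factor of memory CD8 T cells and NK cells, read 7.78, 6.84, 6.31 and 6.52 on the CD8αβ arrays and 5.61, 5.32, 4.90 and 5.64 on the CD8αα arrays (−1.49, SE 0.27, adjusted p = 0.0303). The arrays did not overlap, but the call was lost without 5 of the 8 arrays in turn. Hic1, a transcriptional repressor outside that list, read 7.86, 6.32, 7.63 and 6.47 in CD8αβ IEL against 10.10, 9.70, 9.50 and 8.98 in CD8αα IEL (2.50, SE 0.22, adjusted p = 0.00135). Tcf7 did not pass (1.39, adjusted p = 0.149).

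Genes of gut homing and residence were called in both directions, 2 of 18 higher and 2 lower (22.2%). Itgae, the integrin αE chain that binds E-cadherin of the epithelium, read 9.84 and 9.29 at 0 h and 6.58 and 7.40 at 24 h in CD8αβ IEL, against 11.89 and 12.05 and then 7.84 and 9.84 in CD8αα IEL. Both subsets stood lower at 24 h, and each CD8αα array lay above its matched array (2.13, SE 0.37, adjusted p = 0.0257). The call was lost without 6 of the 8 arrays in turn, at values from 1.77 to 2.54 over all 8. The orphan-type receptor gene Gpr171 was higher by a small amount in every pair (0.61, SE 0.11, adjusted p = 0.0343). Itgb1, the integrin β1 chain (−1.13, SE 0.23), and Itgal, the αL chain of LFA-1 (−0.66, SE 0.13), were lower with no overlap of arrays, and both lost the call without at least 6 of the 8 arrays in turn.

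Several of the largest differences lay outside the lists of T cell genes. Asb2, a substrate-binding subunit of a ubiquitin ligase, read 11.995 and 9.73 at 0 h and 9.36 and 8.01 at 24 h in CD8αβ IEL, and 14.36 and 13.78 and then 10.57 and 11.54 in CD8αα IEL (2.79, SE 0.47, adjusted p = 0.0234). Both subsets stood lower at 24 h, and their arrays overlapped. Sulf2, an extracellular sulfatase of heparan sulfate, differed by 2.99 (SE 0.43, adjusted p = 0.0124), and by 2.81 with an adjusted p of 0.0531 without CD8αα 24 h replicate 2. Slc2a6, a glucose transporter family member, read 5.59 and 5.72 at 0 h and 9.24 and 8.66 at 24 h in CD8αβ IEL, against 8.88 and 8.26 and then 10.71 and 11.66 in CD8αα IEL (2.57, SE 0.28, adjusted p = 0.00327). Unlike Asb2 it stood higher at 24 h in both subsets.

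On the lower side, Fam20a, a pseudokinase of the secretory pathway, read 8.56, 8.72, 9.60 and 10.45 in CD8αβ IEL against 4.95, 5.66, 5.60 and 7.58 in CD8αα IEL (−3.39, SE 0.26, adjusted p = 0.000617). Fam20a passed the detection filter only through CD8αβ arrays. Sgk1, a kinase activated through phosphoinositide 3-kinase signalling, differed by −2.67 at 0 h and −2.63 at 24 h (−2.65, SE 0.25, adjusted p = 0.00167). Sema4a, a semaphorin, differed by −2.39 (SE 0.29) with overlapping arrays. Niban2 (−2.67, SE 0.48, adjusted p = 0.0295) and Ier3, the 1 call among 14 immediate early and heat shock genes (7.14%; −1.93, SE 0.33), lost the call without 5 and 6 of the 8 arrays in turn. Of the 315 called features 93 were unnamed array IDs.

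Of 9 B cell markers 2, Cd79b and Igh-6, were called higher in CD8αα IEL, as were 3 of 6 MHC class II genes. Among all features tested 2.06% were called higher. The marker counts include genes that were not tested, so they are not shares of the same kind. The other B cell markers of the list did not enter the test. Cd79b, a signalling chain of the B cell receptor, read 7.09, 6.08, 6.43 and 5.0 in CD8αβ IEL against 9.21, 9.26, 8.26 and 8.16 in CD8αα IEL, with no overlap (2.57, SE 0.24, adjusted p = 0.00168). Igh-6, the immunoglobulin μ heavy chain, read 8.37 and 8.20 at 0 h and 6.71 and 6.18 at 24 h in CD8αβ IEL, against 10.81 and 10.38 and then 7.17 and 7.36 in CD8αα IEL, and was called higher (1.56, adjusted p = 0.0374). Of the 9 markers 3 were detected on any array (2 by the deposited p). Cd79a, Ms4a1, Pax5, Cd22, Ebf1 and Igl-V1 were detected on 0 of the 8, and Igk-C only on both replicate 2 arrays of CD8αβ IEL (6.66 and 8.70; on none by the deposited p). The summed signal of the list ranged from 634 to 2562 in CD8αα and from 368.8 to 680.6 in CD8αβ IEL. The class II calls were H2-DMa (1.53), H2-DMb1 (1.17) and H2-Eb1 (1.13). H2-DMb1 and H2-Eb1 passed the detection filter only through CD8αα arrays, so their direction was largely set by the filter. H2-Ab1 (0.70, adjusted p = 0.0676) did not pass, and H2-Aa was detected on no array. Cd74 read 4.74, 4.73, 4.79 and 6.42 in CD8αβ IEL against 7.27, 7.42, 5.23 and 7.65 in CD8αα IEL. It was detected on 3 CD8αα arrays and 1 CD8αβ array by its signal, on 1 and 0 by the deposited p, and was not tested. The summed signal of the class II genes was 809.9 to 1604 in CD8αα and 358.7 to 778.1 in CD8αβ IEL. The part of other cells in these values was not tested.

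Markers of the remaining cell types gave fewer calls. Of 9 macrophage and monocyte markers 2 were detected, with Lyz2, Csf1r and Adgre1 on no array, and Cd14 was called lower (−0.98, adjusted p = 0.0238). Cd14 passed the detection filter only through CD8αβ arrays. Of 7 dendritic cell markers 2 were detected and none was called. The 4 CD4 T cell markers were detected on no array. Nor were the 4 erythroid markers by their signal, but the deposited p detected Hbb-b1 on 4 CD8αα and 3 CD8αβ arrays, and its difference did not pass (0.11, adjusted p = 0.660). Of 14 epithelial markers 3 were detected and none was called. Lgals4 was detected on all 8 arrays and Cldn7 on 1 CD8αα array. Cdh1 was detected on 2 CD8αα arrays (3 by the deposited p) and 3 CD8αβ arrays. Kit, a growth factor receptor of mast cells, was detected on 4 CD8αα arrays and 1 CD8αβ array by its signal. The deposited p detected it on none, so it did not enter the test. It was brightest on CD8αα 0 h replicate 1 (8.72). On that array Cpa3, a further mast cell marker, read 7.09, against 5.26 on CD8αβ 0 h replicate 1. By its signal Cpa3 was detected on that CD8αα array alone, by the deposited p on 1 array of each subset, and it was not tested. Ms4a2, Mcpt1 and Mcpt2 were detected on none. The summed signal of the mast cell and granulocyte list ranged from 195.2 to 669.3 in CD8αα and from 153.1 to 212 in CD8αβ IEL. All 8 T cell markers were detected on all 8 arrays by their signal, and by the deposited p Lat was detected on 6 and Thy1 on 4.

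Most gene families of metabolism and growth showed no call. None of 14 glycolysis, 20 sterol and fatty acid synthesis, 18 mitosis, 32 S phase and 24 ribosome assembly genes was called, nor any of 10 MHC class I and peptide loading or 13 BCL2 family genes. Over all features 3.57% were called, a share at which lists of these sizes hold few calls or none. Small differences nevertheless leaned one way in some families. The sterol list had 17 negative of 20 (median −0.38), the ribosome assembly list 21 of 24 (median −0.30) and the glycolysis list 13 of 14 (median −0.28). Of all 8835 features 4464 were negative, with a median of −0.0028. Members of a list may vary together, so these counts are not counts of independent genes. The glycolysis median ranged from −0.52 to 0.06 over the matched pairs, while those of the other 2 lists stayed negative. The mitosis list had a median of −0.51 at 0 h and 0.07 at 24 h. All 7 tested GIMAP GTPases, survival regulators of lymphocytes, had positive differences (median 0.53), of which Gimap7 passed (0.80, SE 0.15, adjusted p = 0.0309; 14.3% of the list) and the next, Gimap9, did not (0.57, adjusted p = 0.0786). Of 22 interferon-stimulated genes Ifi47, an interferon-induced GTPase, was called higher (0.88, SE 0.14) and Ifitm3, a membrane protein that restricts viruses, lower (−1.09, SE 0.21), 9.09% of the list, with a median of −0.01.

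**Figure D4:**
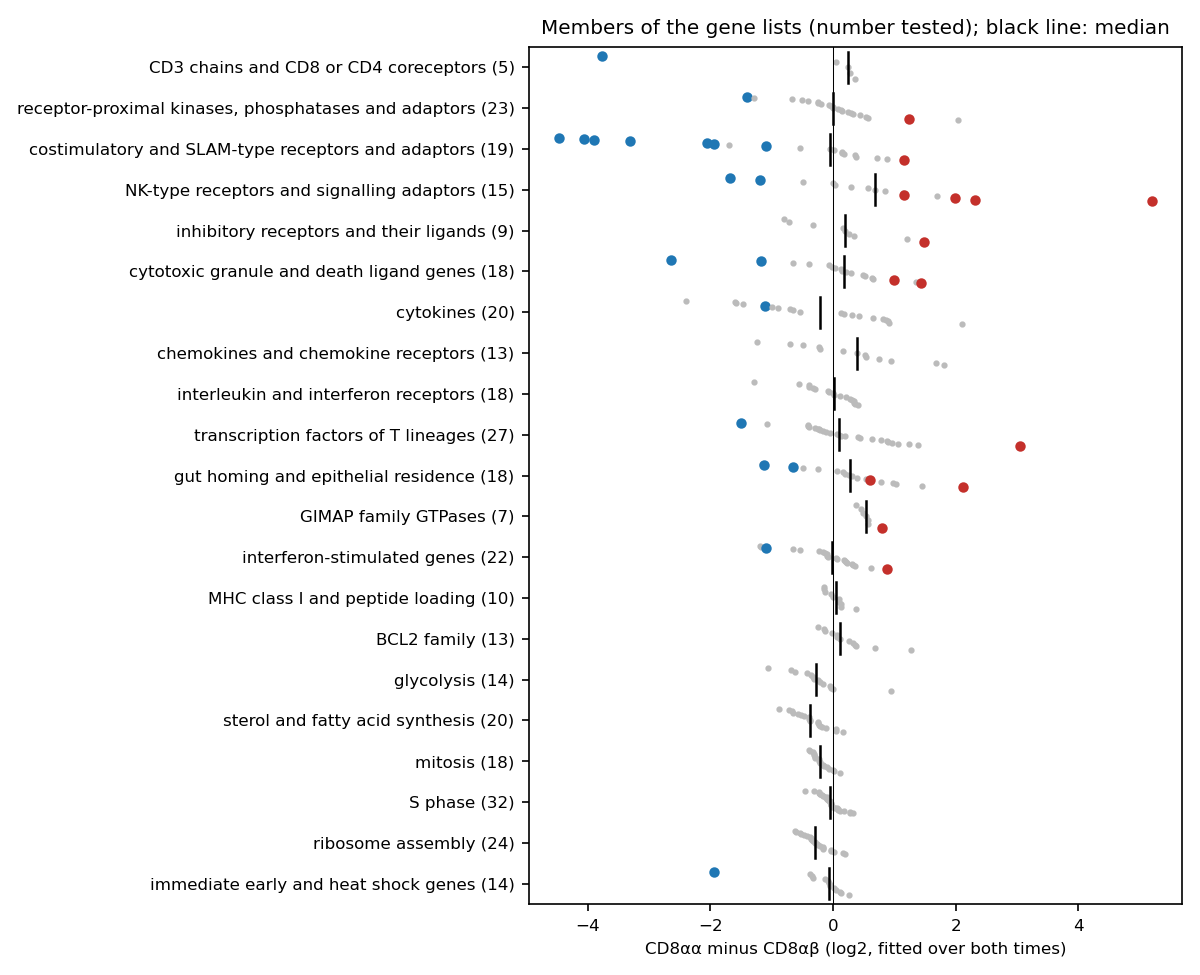
Log2 difference between CD8αα and CD8αβ IEL over both times (x axis) of every tested member of the gene lists (rows, number tested in brackets), with called members in red (higher) and blue (lower), others in grey, the list median as a black line and points spread vertically for legibility. Costimulatory and SLAM-type genes reach from −4.47 to 1.15, and the lists of glycolysis, sterol synthesis, mitosis, S phase and ribosome assembly hold no coloured point.

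The size of the called differences was compared between the times. Their medians were larger before restimulation. The median of the higher features was 1.26 at 0 h and 0.99 at 24 h, that of the lower features −1.46 and −1.16, and 220 of 315 (69.8%) had the larger difference at 0 h. That share was not computed over all features, so it cannot be read as particular to the called ones. For 207 of the 315 both differences lay within 1.5 times of each other. A test of the difference itself, the interaction of subset and time, called 0 features by limma, with 494 of 8835 (5.59%) at an unadjusted p under 0.05. Among the 315 called features that was so for 57 (18.1%), which were chosen on the same arrays. They included TCRD-V1, Tyrobp and Ikzf2, all closer at 24 h, and Cd5 and Cd2, which were further apart at 24 h (−4.09 and −4.85 for Cd5, −3.41 and −4.73 for Cd2). Fitted alone, the 0 h arrays gave 200 higher and 146 lower features and the 24 h arrays 13 and 29, of which 184 and 33 were among the 315.

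The call rested on both replicates to different degrees. The median of the higher features was 0.99 in the replicate 1 pairs and 1.21 in the replicate 2 pairs, and that of the lower features −1.32 and −1.28. Of 62 named features that were called, 38 kept the call without any 1 array, among them Cd8b1, Cd5, Cd2, Sh2d1a, Ly6c1, Fcer1g, Chn2, Ikzf2, Cd79b and all 7 called γ and δ segments. The other 24 lost it without at least 1 array, from Sulf2 (1 array) through Klra7, Ifi47 and TRBV12-1 (3 each), Asb2, Gzmk and TRAV6-1 (4 each) and Cd160, Gimap7, Ifitm3 and Pilrb1 (6 each) to Gpr171 (7). Xist, the 1 of 5 sex-linked genes tested, was called higher (0.50, SE 0.10, adjusted p = 0.0444) and lost the call without any of the 8 arrays. Cd8b1 and Cd2 kept it under all 28 alternatives run.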

How the data were processed

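Per the labels' protocols, total RNA was amplified and labelled with biotin by an Ambion TotalPrep kit and hybridised to Illumina bead arrays, 2 in each of 4 groups; the array version is not given in the sources used here. Per the file headers, the authors deposited non-normalized intensity, the mean signal over the beads of an ID. A detection p-value, deposited beside it, ranks the ID against negative control beads. Bead counts and bead standard errors were deposited too and served, as a score of beads, only to find IDs that hold 1 probe. A second deposited set of log2 values, produced with lumi according to the submitters' processing notes (no version given in the sources used here), was kept for an alternative.

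A normal-exponential background model was applied (offset 16), with parameters from the 22828 IDs read as single-probe (72.5% of 31492), followed by quantile normalization and log2, with limma 3.58.1 in R 4.3.3. The filter required a deposited detection p under 0.01 on both arrays of some group and kept 8912 IDs, and the brightest ID stood for a gene, which left 8835 features, unnamed IDs included. This filter removed 1250 IDs whose signal reached the detection level on both arrays of some group. Symbols came by Entrez ID (10669 IDs), accession (5494), the platform table (5401) or an ID equal to a symbol (373), and 9555 IDs stayed unnamed. Detection on an array, where the text gives it, was read from the signal through single-probe IDs. The model held subset, time and replicate number (4 residual degrees of freedom), and the interaction was fitted with a mean per group and the replicate number (3). All adjusted p-values are limma values, and SE is the moderated standard error. Arrays of the same replicate number deviated together around their group means (correlations of 0.532 to 0.697 in all 6 pairs of groups), so the replicate number entered as a block. The fit was tested on simulated data.

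The comparison, its gene lists and marker lists were chosen with earlier results of these data known. Named are the coreceptor, CD3 and detected receptor segment genes, the 12 largest differences per direction and up to 3 called members per list and direction; further list members were named after their values were seen. Alternatives changed the blocks, the chip, background, normalization, filter, prior and the arrays used. Apart from the bead standard errors, no per-sample column was left unused. A member of a marker list is not reported here and was left out of its sums.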

Additional observations from a re-analysis of the deposited data

Results flagged for a closer look

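Of 76 named genes and 22 gene lists, Cd247 and the interferon-stimulated list had differences of opposite sign at the times in every matched pair of arrays. Cd247, the ζ chain of the CD3 complex, differed by 0.29 and 0.44 on the log2 scale (CD8αα minus CD8αβ) in the 0 h pairs and by −0.15 and −0.38 in the 24 h pairs, with means of 0.37 and −0.27. The interaction of subset and time for Cd247 did not pass (−0.63, adjusted p = 0.875 by limma over all features tested, unadjusted p = 0.0707), so a change between the times was not shown. For the interferon-stimulated genes the median over the list, averaged over the pairs of a time, was 0.0716 at 0 h and −0.0533 at 24 h, and this difference was not tested. Groups of 2 arrays were too small to look for single arrays far from the rest of their group.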

How the results depend on the processing

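The counts of called features, 182 higher and 133 lower, depended on the processing more than their direction did. They were 42 and 41 with no replicate block, 20 and 27 with the chip as a block, 31 and 53 with chip and replicate block together, 14 and 20 on chip 1 alone, 42 and 55 with the submitters' log2 values, 67 and 54 with no detection filter and 1 and 5 with the background taken from all IDs. Leaving out arrays or a replicate gave 49 to 291 higher and 67 to 216 lower features. The replicate 1 pairs alone, within 1 chip, gave 49 and 73 and kept 38 of the 62 named calls. The replicate 2 pairs alone gave 208 and 188 and kept 55. In the replicate 2 pairs the subset and the chip cannot be told apart. The counts were 82 and 72 without CD8αβ 0 h replicate 1, 69 and 67 without CD8αα 0 h replicate 1, 70 and 75 without CD8αβ 0 h replicate 2, 118 and 86 without CD8αβ 24 h replicate 2, 69 and 68 without CD8αα 0 h replicate 2, 83 and 76 without CD8αα 24 h replicate 2, and 291 and 216 without CD8αα 24 h replicate 1. Alternatives chosen after seeing the data gave 126 and 81 for named genes only and 13 and 29 for the 24 h arrays only. The higher calls were 57.8% of all calls, 43.3% with the submitters' values and 51.7% with median scaling. The interaction, with 0 calls, gave 1 with the background from all IDs and 0 in its other alternatives. Between 2 and 62 of the 62 named calls were kept, fewest with the background from all IDs and 30 with no replicate block or with the submitters' values. Over 2105 pairs of a named feature and an alternative, 502 lost a call, 14 gained one and 15 changed sign, and no call turned into a call of the other sign. The sign changed for Cd247 (−0.12 under the chip block or chip 1 alone, −0.27 at 24 h alone, −0.12 to 0.22 with arrays left out), Trb (−0.80 under the chip block or chip 1 alone, −0.14 with chip and replicate block together, −0.060 at 0 h alone, −0.14 to 0.35 with arrays left out), Xist (−0.0016 under the chip block or chip 1 alone), TRGV2 (−0.0056 without replicate 1 to 1.12 without replicate 2) and TRBV8 (0.98 without replicate 1, where it passed, to −2.77 without replicate 2). The cause was not tested, except that settings with fewer arrays leave fewer degrees of freedom. All alternatives listed were run. IDs near background have compressed differences, which limits the folds of undetected genes.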

Other observations

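The features in this paragraph were chosen after their values were seen. The largest difference of all was that of the unnamed array ID A630038E17RIK (5.61, CD8αα minus CD8αβ, log2), above every named gene. Among named genes not described so far, Grb7, a signalling adaptor (2.46), Ahrr, a repressor of the aryl hydrocarbon receptor (2.39), Xdh, xanthine dehydrogenase (2.31), Cd63, a tetraspanin of late endosomes and granules (2.19), and the selenium-binding protein genes Selenbp1 (2.19) and Selenbp2 (1.48) were called higher in CD8αα IEL. Cd72, a surface protein mainly of B cells, was higher as well (1.99), as was Clnk, an adaptor of immune receptors (1.96). The growth factor gene Hbegf (−1.37) and Stc2, stanniocalcin (−1.41), were called lower. Of the 133 lower features 26 were array IDs with names starting LOC or SCL, which no table used here ties to a gene.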
